A study of Mus musculus with 8 samples.

Results

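The genes described here are 55 genes of G2, mitosis and the kinetochore, taken by symbol from a mouse embryo expression table of 38924 genes. All 55 symbols were found, and each gene was followed across the study's 3 groups. RNA was sequenced from 3 pools of diapaused inner cell mass (diapaused ICM), 2 pools of epiblast from day 6.5 post-implantation embryos and 3 pools of inner cell mass from day 3.5 blastocysts (ICM). A pool held about 50 embryos from C57BL/6 females. Diapause is a pause in which the blastocyst stays unimplanted and can later resume growth. It was brought about on day 3.5 by injecting tamoxifen and giving 0.5 mg Depo Provera, a progestin, and the blastocysts were collected 5 days later. No such treatment is described for the ICM and epiblast groups, so diapause, the hormones and the time since day 3.5 cannot be told apart. Removal of the trophectoderm by antibody and complement is described for the day 3.5 embryos, and all RNA was amplified before sequencing.

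Levels are the authors' adjusted TPM (a transcript abundance scaled to transcript length, whose adjustment is not described in the labels). Fold changes are differences of log2(adjusted TPM + 1), given ± SE, which understate the change of low genes. They were tested with limma's moderated test over 17698 genes with at least 1 adjusted TPM in at least 2 libraries. A gene was called when its Benjamini-Hochberg adjusted p was under 0.05. Of the 55 genes, 54 passed the filter on low values and were tested, and Cdc25b did not. Pools are numbered within a group as the labels number them. The p-values measure the spread between pools of embryos.

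A cell enters mitosis when cyclin B and CDK1 are activated by CDC25 phosphatases and Polo-like kinase 1. Condensin then compacts the chromosomes, kinetochores attach them to spindle microtubules, and the spindle checkpoint holds anaphase until every chromosome is attached. The anaphase-promoting complex (APC/C) next marks securin and cyclin B for destruction, separase cuts cohesin, and cytokinesis divides the cell. Most of these genes are transcribed in a burst late in the cycle under the MuvB complex with B-MYB and FOXM1, so their RNA is low in cells that do not divide. Cells of the normal early epiblast divide rapidly, whereas blastocysts in diapause largely stop dividing.

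Of 12 markers of the pluripotent lineage, listed as epiblast markers, 3 were lower and 0 higher in diapaused ICM than in ICM (median -0.36). In epiblast 8 were lower and 3 higher than in ICM (median -1.20). The higher ones were Dnmt3b and the post-implantation genes Fgf5 and Otx2, and the lower ones included Nanog, Pou5f1 and Esrrb. Fgf5 and Otx2 were at 145 and 68.9 and at 64.9 and 53.0 adjusted TPM in the epiblast pools and at most 2.42 elsewhere, while the pluripotency gene Sox2 was at or below 4.68 in every library. Of 17 tested markers of primitive endoderm, the ICM's other lineage, diapaused ICM had 11 higher and 2 lower than ICM. The summed level of all 18 was 1421.1, 1288.8 and 1433.5 adjusted TPM in the diapaused ICM pools, 72.7 and 89.3 in the epiblast pools and 625, 434 and 707 in the ICM pools. Against epiblast, diapaused ICM had 13 of the 17 higher and 0 lower. Summed trophectoderm markers (14 genes) were at 92.9, 82.7 and 230.4 adjusted TPM in diapaused ICM and 82.0, 60.9 and 104 in ICM, with 1 of 13 tested higher and the defining gene Cdx2 at or below 1.48 in both. Of 9 blood and immune markers found, only 2, Laptm5 and Cd68, passed the filter on low values. Both were higher in diapaused ICM (means 31.8 and 45.2 adjusted TPM) than in ICM (0.966 and 6.29 adjusted TPM), with the pan-leukocyte gene Ptprc at or below 0.399 in every library. The part of these cell types in the results below was not tested, and in pooled tissue fewer cells of a kind and less RNA per cell cannot be told apart.

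The mitotic genes were lowest in diapaused ICM. The level summed over the 55 genes was 872, 981 and 1104.4 adjusted TPM in the diapaused ICM pools, 2331.7 and 1901.8 in the epiblast pools and 1850.5, 1589.9 and 1777.5 in the ICM pools. No diapaused ICM pool overlapped a pool of another group. As a share of each library's own total the sum was 0.0739%, 0.0885% and 0.119% in diapaused ICM, 0.205% and 0.187% in epiblast and 0.188%, 0.221% and 0.189% in ICM. The median gene stood at 8.60 adjusted TPM in diapaused ICM, 20.3 in epiblast and 14.3 in ICM, and the condensin subunit Smc4 was the highest in each group.

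Between diapaused ICM and ICM, 17 of the 54 tested genes were lower in diapaused ICM (31.5%, against 5.81% of all genes tested) and 0 were higher (7.52% of all genes). At an unadjusted p under 0.05 in the same limma fit, 38 were lower and 0 higher, without a matching count over all genes. The median log2 fold change of the 54 was -0.81 and that of all genes was 0.0044, and values ran from -2.32 (Cdca5) to 0.66 (Ncapd2). Every diapaused ICM pool lay below every ICM pool in 30 genes (55.6%, against 14.4% of all genes). The log2 fold change was negative in 49 of the 54 genes and in 8772 of all 17698 genes tested. The ratio of group means was below 1 in 48 of 55 genes and below 0.5 in 24. Over the 3 comparisons, 13 genes passed in none. The ratios and the genes without a call were not counted over all genes.

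Between diapaused ICM and epiblast, 31 of 54 genes were lower in diapaused ICM (57.4%, against 18.6% of all genes) and 4 were higher (7.41%, against 16% of all genes). The median was -1.13, against -0.11 for all genes, and every diapaused ICM pool lay below both epiblast pools in 37 genes (68.5%, against 34.1% of all genes). Between epiblast and ICM, 11 genes were higher in epiblast (20.4%, against 16.7% of all genes) and 4 lower (7.41%, against 13.3%), with a median of 0.18 against 0.14 for all genes. These shares stood nearer to those of all genes. With the 2 other ways of scaling that moved all genes by over 0.1 the count of higher against lower genes was 8 against 6 (rescaled without the 100 most abundant genes) and 8 against 7 (median-ratio scaling). The 3 comparisons share their libraries and are not independent.

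Diapaused ICM had the lowest mean of the 3 groups in 45 of 55 genes, epiblast in 7 and ICM in 3. The order epiblast, ICM, diapaused ICM from high to low held in 30 genes, and ICM, epiblast, diapaused ICM in 15. Neither the orders of the group means nor the joint calls given next were counted over all genes. Called in all 3 comparisons, Bub1 and Ncapg were lower in diapaused ICM than in both other groups and higher in epiblast than in ICM. Pttg1 was also called in all 3, but with epiblast lowest. Another 9 genes were lower in diapaused ICM than in both other groups with no call between those groups: Plk1, Birc5, Ttk, Spc24, Kif11, Kif4, Kif20a, Cdca5 and Cdc20. Diapaused ICM 3 had the highest of the 3 diapaused levels in 32 of 55 genes and the lowest in 5, and it was also the pool with the highest trophectoderm sum. Without it 20 genes were called lower than in ICM. Diapaused ICM 1 had the lowest of the 3 levels in 30 of 55 genes and the highest in 13. Its summed blood and immune markers (9 genes, of which only Laptm5 and Cd68 passed the filter on low values) stood at 133.9 adjusted TPM. The sum was 54.1 and 47.8 in diapaused ICM 2 and 3, at most 4.08 in epiblast and at most 10.1 in ICM. Without it 13 genes were called lower than in ICM. The count was also 13 without diapaused ICM 2, and it was 12 without ICM 3 and 10 without ICM 1.

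**Figure D1:**
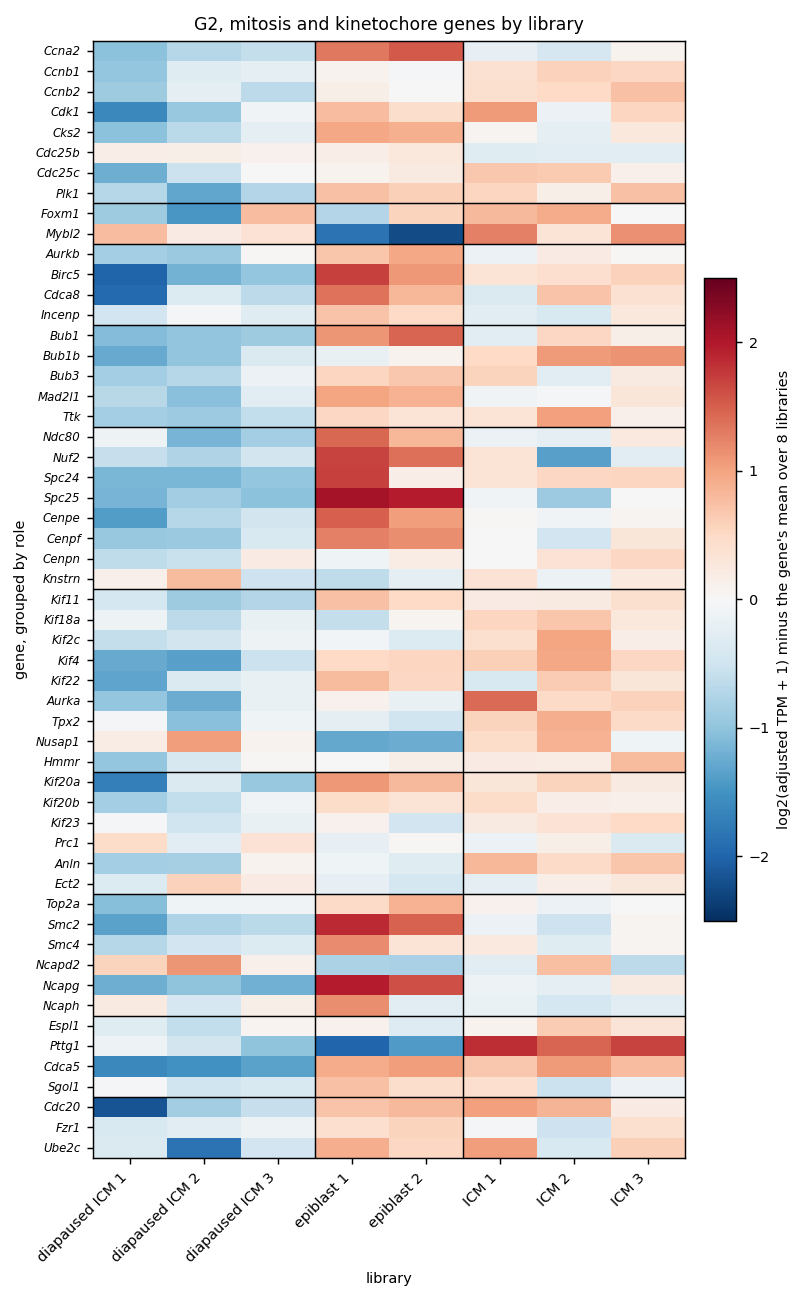
Each cell is the log2(adjusted TPM + 1) of a gene (rows, grouped by role with lines between roles) in a library (columns), minus that gene's mean over the 8 libraries, from blue for lower to red for higher. The 3 diapaused ICM columns are mostly blue, and in Mybl2, Nusap1, Ncapd2 and Pttg1 the lowest columns are those of the epiblast.

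The promoters of these genes are shown because the transcriptional burst of the late cycle is known to act through a pair of short elements. These are the CCAAT box, bound by NF-Y, and the cell cycle genes homology region (CHR, TTTGAA), bound by MuvB complexes. RefSeq sequence of build GRCm38.p6 from 250 bases before to 50 after the start was at hand for 46 of the 55 genes, and not for Aurkb, Ccna2, Cdc25c, Foxm1, Incenp, Kif20a, Smc4, Spc24 and Tpx2. CCAAT on either strand was present in 32 of 46 (69.6%, against 37.9% of 27025 RefSeq genes) and TTTGAA on either strand in 30 (65.2%, against 18.1%). Both were present in 25 (54.3%, against 7.12%). In the 250 bases before the start alone, CCAAT was in 31 (67.4%, against 34.5%), TTTGAA in 16 (34.8%, against 16.3%) and both in 14 (30.4%, against 5.73%). Matches can overlap in their letters. In Cdca8 the TTTGAA match at 13 and the CCAAT match at 18 bases after the start share a base. In Ube2c the CCAAT matches at -186 and -183 overlap each other. A match is a description of the letters and not a bound site.

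In 8 of the 46 promoters a pair of CCAAT boxes on the same strand began 30 to 34 bases apart (17.4%, against 1.23% of RefSeq genes), a spacing that was chosen after the positions had been seen. The distance was 32 bases in Ccnb1, Cdk1, Aurka and Spc25, 33 in Ccnb2 and Hmmr, 34 in Cdca8 and 31 in Ube2c. The 100 bases before the start are given for genes with both motifs, with a pair, with TTTGAA alone, and with neither. Capitals mark CCAAT and TTTGAA, or ATTGG and TTCAAA where the motif is on the other strand.
Ccnb1 (chr13:100786487-100786586, minus strand): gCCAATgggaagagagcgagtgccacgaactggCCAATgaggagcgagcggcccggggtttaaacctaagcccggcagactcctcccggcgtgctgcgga
Cdk1 (chr10:69352913-69353012, minus strand): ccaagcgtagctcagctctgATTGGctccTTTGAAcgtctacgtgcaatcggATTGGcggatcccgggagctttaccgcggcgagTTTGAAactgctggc
Aurka (chr2:172370571-172370670, minus strand): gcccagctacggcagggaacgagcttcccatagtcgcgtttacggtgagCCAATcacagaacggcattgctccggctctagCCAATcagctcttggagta
Spc25 (chr2:69206214-69206313, minus strand): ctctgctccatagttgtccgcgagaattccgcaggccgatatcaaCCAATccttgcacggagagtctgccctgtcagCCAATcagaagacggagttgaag
Cdc20 (chr4:118437344-118437443, minus strand): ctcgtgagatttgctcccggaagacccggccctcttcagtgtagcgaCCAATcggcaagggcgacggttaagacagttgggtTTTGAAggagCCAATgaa
Ube2c (chr2:164769829-164769928, plus strand): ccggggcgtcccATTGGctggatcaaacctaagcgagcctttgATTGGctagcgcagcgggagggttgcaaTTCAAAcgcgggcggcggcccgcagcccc
Kif11 (chr19:37376282-37376381, plus strand): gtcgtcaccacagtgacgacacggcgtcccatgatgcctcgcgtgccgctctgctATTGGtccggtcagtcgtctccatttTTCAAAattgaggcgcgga
Ncapg (chr5:45669825-45669924, plus strand): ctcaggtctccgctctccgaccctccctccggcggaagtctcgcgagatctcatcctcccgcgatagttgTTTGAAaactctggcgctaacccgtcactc
Cdca5 (chr19:6084997-6085096, plus strand): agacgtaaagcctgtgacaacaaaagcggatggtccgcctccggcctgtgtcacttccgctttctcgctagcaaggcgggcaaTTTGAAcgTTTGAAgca
Pttg1 (chr11:43425982-43426081, minus strand): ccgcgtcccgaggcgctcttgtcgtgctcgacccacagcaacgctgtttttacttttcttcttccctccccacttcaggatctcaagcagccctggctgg
Mybl2 (chr2:163054535-163054634, plus strand): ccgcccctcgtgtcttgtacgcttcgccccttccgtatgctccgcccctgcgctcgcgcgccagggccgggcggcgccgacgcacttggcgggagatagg

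Of the 39 TTTGAA matches in the 300-base windows, 30 lay from 30 bases before the start onward, and Ncapg and Cdca5 show this position, Cdca5 with 2 copies. Ccnb1, Aurka and Spc25 show the CCAAT pair without TTTGAA in these 100 bases. Shares were close between genes with and without a call. Of the 15 genes called lower in diapaused ICM than in ICM that have a sequence, 11 held CCAAT, 11 TTTGAA and 9 both (60.0%). Of the 30 tested genes with a sequence and no such call, 20 held CCAAT, 19 TTTGAA and 16 both (53.3%). Before the start alone, both were in 4 of the 15 (26.7%) and 10 of the 30 (33.3%). Neither motif was in the windows of Birc5, Kif18a, Knstrn, Mad2l1, Mybl2, Ncaph, Nuf2, Nusap1 and Pttg1, a set that holds both strongly lower genes (Birc5, Pttg1) and genes with no call between diapaused ICM and ICM (Mybl2, Nusap1).

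Entry into mitosis is described first. In this role 3 of 7 tested genes were lower in diapaused ICM than in ICM (median -1.08), and 4 of 7 were lower than in epiblast. Cyclin B is the activating partner of CDK1. Ccnb2 was at 4.28, 7.21 and 5.19 adjusted TPM in diapaused ICM, 9.79 and 8.75 in epiblast and 11.8, 12.6 and 15.2 in ICM. No diapaused pool reached the lowest ICM pool, and the log2 fold change against ICM was -1.13 ± 0.23 (adjusted p = 0.0123). Ccnb1 was at 18.7, 30.2 and 31.5 adjusted TPM in diapaused ICM, 39.9 and 36.5 in epiblast and 48.8, 56.4 and 54.0 in ICM, with -0.99 ± 0.24 against ICM (adjusted p = 0.028). The cyclin B genes were lower together, and neither passed against epiblast (Ccnb1 -0.53 ± 0.27, adjusted p = 0.158; Ccnb2 -0.67 ± 0.25, adjusted p = 0.0682). Reads of Ccnb1 may be shared with near-identical processed pseudogenes. Ccnb1-ps, 99.2% identical, averaged 15.8 adjusted TPM in diapaused ICM, 29.3 in epiblast and 32.2 in ICM. Gm12856, 98.1% identical, averaged 11.8 adjusted TPM in diapaused ICM, 22 in epiblast and 22.2 in ICM. The Ccnb1 call was lost without diapaused ICM 1 or without ICM 1, 2 or 3 (adjusted p = 0.0706, 0.0675, 0.0617 and 0.0764).

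Plk1, the Polo-like kinase that promotes entry and spindle assembly, was at 14.7, 9.46 and 14.5 adjusted TPM in diapaused ICM, 41.7 and 37.9 in epiblast and 36.1, 27.5 and 41.6 in ICM. All diapaused pools lay below all others, and the log2 fold change was -1.38 ± 0.25 against ICM (adjusted p = 0.00761) and -1.58 ± 0.28 against epiblast (adjusted p = 0.00323). Cdk1, the mitotic kinase itself, was at 5.67, 9.63 and 18.2 adjusted TPM in diapaused ICM, 34.1 and 26.6 in epiblast and 41.7, 17.4 and 28.6 in ICM. Diapaused ICM 3 overlapped ICM 2, and the difference from ICM missed the threshold (-1.36 ± 0.42, adjusted p = 0.0665), but passed without diapaused ICM 3 (adjusted p = 0.0305) or ICM 2 (adjusted p = 0.0418). Against epiblast Cdk1 was lower (-1.49 ± 0.47, adjusted p = 0.0378), a call lost without diapaused ICM 1 or 2, epiblast 1 or 2, or ICM 3 (adjusted p = 0.0895, 0.0767, 0.197, 0.117 and 0.0541). Cdc25c, a phosphatase that activates CDK1, was at 0.745, 1.83 and 3.07 adjusted TPM in diapaused ICM and 5.55, 5.43 and 3.48 in ICM (-1.08 ± 0.32, adjusted p = 0.0556; 0.0266 without diapaused ICM 3). Cdc25c overlaps the exons of Gm3550 on the opposite strand, and whether reads were counted by strand is not stated. Gm3550 averaged 147 adjusted TPM in diapaused ICM, 54.5 in epiblast and 137 in ICM. Cdc25b, a relative of Cdc25c, was low in all groups. It stood at 0.592, 0.576 and 0.536 adjusted TPM in diapaused ICM, 0.595 and 0.718 in epiblast and 0.159, 0.180 and 0.177 in ICM. ICM was its lowest group, at levels below the filter.

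Cyclin A and the CDK subunit Cks2 differed mainly by being high in epiblast. Ccna2 was at 13.8, 17.6 and 19.1 adjusted TPM in diapaused ICM, 74.7 and 86.8 in epiblast and 25.4, 21.8 and 31.1 in ICM. All 3 groups stood apart, but only the epiblast differences passed: 1.60 ± 0.25 for epiblast over ICM (adjusted p = 0.0022) and -2.21 ± 0.25 for diapaused ICM against epiblast (adjusted p = 0.000378), with -0.60 ± 0.23 for diapaused ICM against ICM (adjusted p = 0.121). Ccna2 overlaps the exons of Exosc9 on the opposite strand, which averaged 24.5 adjusted TPM in diapaused ICM, 184 in epiblast and 46.4 in ICM, and whether reads were counted by strand is not stated. Cks2, which helps CDK1 bind its substrates, was at 15.9, 20.4 and 28.2 adjusted TPM in diapaused ICM, 65.8 and 62.5 in epiblast and 34.8, 28.1 and 40.4 in ICM (diapaused ICM against epiblast -1.57 ± 0.29, adjusted p = 0.0038). Its call between epiblast and ICM (0.89 ± 0.29, adjusted p = 0.044) was lost without any of diapaused ICM 2, epiblast 1 or 2, or ICM 1, 2 or 3 (adjusted p = 0.0596, 0.178, 0.14, 0.0906, 0.096 and 0.0529). The ratio of Ccna2 to Ccnb1 was 0.738, 0.583 and 0.605 in diapaused ICM, 1.87 and 2.38 in epiblast and 0.521, 0.386 and 0.576 in ICM. The Ccna2 value was thus below the Ccnb1 value in both ICM groups and above it in epiblast. Ccnb1 reads that may lie with Ccnb1-ps and Gm12856 (29.3 and 22 adjusted TPM in epiblast) are left out of this ratio. Whether the epiblast held more cyclin A than cyclin B RNA was therefore not settled.

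Neither transcription factor of the programme passed between diapaused ICM and ICM. Mybl2 (B-MYB), which joins MuvB to switch these genes on, was at 121, 81.3 and 91.3 adjusted TPM in diapaused ICM, 18.9 and 14.2 in epiblast and 169, 89.2 and 156 in ICM. The diapaused and day 3.5 ranges overlapped (-0.46 ± 0.30, 95% interval -1.13 to 0.21, adjusted p = 0.364). Both lay far above epiblast (2.48 ± 0.33 for diapaused ICM over epiblast, adjusted p = 0.000806; -2.95 ± 0.33 for epiblast against ICM, adjusted p = 0.000393). Mybl2 was the second highest of the 55 genes in diapaused ICM and stood near the middle of them in epiblast. Foxm1, the forkhead factor of late G2, was at 7.14, 4.503 and 24.9 adjusted TPM in diapaused ICM, 8.12 and 21.3 in epiblast and 25.5, 27.7 and 14.2 in ICM. Its pools overlapped in every comparison (diapaused ICM against ICM -1.10 ± 0.57, adjusted p = 0.258), and without diapaused ICM 3 that difference passed (adjusted p = 0.0484).

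The chromosomal passenger complex corrects faulty attachments and later helps drive cytokinesis. All 4 of its subunits were lower in diapaused ICM than in epiblast, and Birc5 alone was also lower than in ICM. Birc5 (survivin) was at 15.7, 28.5 and 33.1 adjusted TPM in diapaused ICM, 218 and 141 in epiblast and 83.6, 88.7 and 98.8 in ICM. Diapaused pools were below all others, by -1.83 ± 0.31 against ICM (adjusted p = 0.00541) and -2.78 ± 0.34 against epiblast (adjusted p = 0.00054). Aurkb, the kinase of the complex, was at 6.55, 6.22 and 13.0 adjusted TPM in diapaused ICM, 21.1 and 25.6 in epiblast and 11.3, 14.8 and 13.0 in ICM. It stood at -1.41 ± 0.32 against epiblast (adjusted p = 0.0101) and -0.61 ± 0.29 against ICM (adjusted p = 0.206, or 0.0424 without diapaused ICM 3). Cdca8 (borealin) was at 5.65, 19.4 and 15.2 adjusted TPM in diapaused ICM, 65.2 and 44.6 in epiblast and 19.1, 41.2 and 32.6 in ICM (-2.08 ± 0.49 against epiblast, adjusted p = 0.0123; -1.23 ± 0.44 against ICM, adjusted p = 0.107). Incenp, the scaffold, varied least, with means of 10.6 adjusted TPM in diapaused ICM, 20.3 in epiblast and 11.8 in ICM (-0.88 ± 0.27 against epiblast, adjusted p = 0.0336; -0.12 ± 0.24 against ICM, adjusted p = 0.801). The epiblast calls of Aurkb and Cdca8 were lost without epiblast 1 (adjusted p = 0.0528 and 0.107) or 2 (0.0789 and 0.0507), and that of Incenp without diapaused ICM 1 or 3 or epiblast 1 or 2 (0.0837, 0.0718, 0.168 and 0.0943).

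The spindle checkpoint genes were lower in diapaused ICM in 3 of 5 cases against ICM (median -1.12) and 4 of 5 against epiblast. Bub1b (BUBR1), the subunit of the inhibitory complex that holds the APC/C, was at 14.8, 18.3 and 28.8 adjusted TPM in diapaused ICM, 32.3 and 39.7 in epiblast and 52.6, 79.0 and 82.3 in ICM. The 3 groups did not overlap, and the log2 fold change was -1.76 ± 0.29 against ICM (adjusted p = 0.00534) and -0.82 ± 0.33 against epiblast (adjusted p = 0.0828), which passed without diapaused ICM 3 (adjusted p = 0.0357). Bub1, the kinetochore kinase that recruits shugoshin and BUBR1, took another order. It was at 3.14, 3.44 and 3.79 adjusted TPM in diapaused ICM, 17.9 and 23.3 in epiblast and 6.36, 11.6 and 8.82 in ICM. Diapaused ICM stood at -1.12 ± 0.24 against ICM (adjusted p = 0.0172) and -2.26 ± 0.27 against epiblast (adjusted p = 0.000477), and epiblast at 1.14 ± 0.27 over ICM (adjusted p = 0.0141). The Bub1 call against ICM was lost without diapaused ICM 1 (adjusted p = 0.053) or ICM 3 (0.0524), and that between epiblast and ICM without epiblast 1 (0.0545) or 2 (0.107).

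Ttk (MPS1), the kinase that starts checkpoint signalling, was at 3.54, 3.34 and 4.33 adjusted TPM in diapaused ICM, 10.6 and 9.33 in epiblast and 9.32, 15.6 and 7.95 in ICM. Both other groups lay above every diapaused pool (-1.29 ± 0.26 against ICM, adjusted p = 0.0125; -1.22 ± 0.29 against epiblast, adjusted p = 0.0123, lost without epiblast 1 or 2 at 0.0911 and 0.058). Mad2l1 (MAD2), the protein that binds CDC20 when attachment fails, was at 9.90, 7.46 and 13.5 adjusted TPM in diapaused ICM, 33.8 and 30.9 in epiblast and 15.5, 16.1 and 20.7 in ICM. Diapaused ICM was lower than epiblast (-1.60 ± 0.28, adjusted p = 0.00302) and did not pass against ICM (-0.73 ± 0.25, adjusted p = 0.092). Its pools also kept the order of epiblast over ICM over diapaused ICM without overlap, and epiblast over ICM passed at 0.87 ± 0.28 (adjusted p = 0.0438). That call was lost without any of diapaused ICM 1, epiblast 1 or 2, or ICM 1, 2 or 3 (0.0564, 0.189, 0.131, 0.112, 0.0865 and 0.0501). Bub3, the shared adaptor of BUB1 and BUBR1, was the most abundant of the 5, at 34.6, 38.6 and 57.1 adjusted TPM in diapaused ICM, 92.4 and 102 in epiblast and 93.9, 52.3 and 74.3 in ICM. Diapaused ICM was lower than epiblast (-1.18 ± 0.32, adjusted p = 0.0205), a call lost without diapaused ICM 1 or 2 or epiblast 1 or 2 (0.0552, 0.052, 0.0864 and 0.112). Against ICM it did not pass (-0.74 ± 0.28, adjusted p = 0.128).

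The kinetochore genes were mostly high in epiblast. Of 8 tested, 5 were higher in epiblast than in ICM, 6 were lower in diapaused ICM than in epiblast, and 1 was lower in diapaused ICM than in ICM (median -0.68). The NDC80 complex, made of NDC80, NUF2, SPC24 and SPC25, is the kinetochore's main grip on microtubules. Spc25 was at 1.53, 2.08 and 1.78 adjusted TPM in diapaused ICM, 23.1 and 21.1 in epiblast and 4.35, 2.03 and 4.65 in ICM. Epiblast lay far above both, by 2.36 ± 0.29 over ICM (adjusted p = 0.000685), and diapaused ICM stood at -3.05 ± 0.29 against epiblast (adjusted p = 0.000186), the lowest fold change of the 54 genes in that comparison. Against ICM it stood at -0.69 ± 0.26 (adjusted p = 0.126), or passed without ICM 2, the low ICM pool (adjusted p = 0.0227). Spc24, the partner of Spc25, was at 3.46, 3.46 and 4.02 adjusted TPM in diapaused ICM, 31.2 and 9.95 in epiblast and 11.4, 13.0 and 13.1 in ICM. It was lower in diapaused ICM than in ICM (-1.54 ± 0.35, adjusted p = 0.0216) and than in epiblast (-2.02 ± 0.39, adjusted p = 0.00516), although the epiblast pools differed from each other by a wide margin. The Spc24 call against ICM was lost without any single diapaused ICM pool (1, 2 and 3: adjusted p = 0.0577, 0.0603 and 0.0515) or ICM pool (1, 2 and 3: 0.0572, 0.0521 and 0.0663).

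The other NDC80 subunits were low in both ICM groups. Reads of Ndc80 may be shared with 2700099C18Rik, a transcript 95% identical over 303 bases. It averaged 3.86 adjusted TPM in diapaused ICM, 12.7 in epiblast and 4.36 in ICM. Ndc80 was at 4.21, 1.54 and 2.14 adjusted TPM in diapaused ICM, 14.3 and 9.06 in epiblast and 4.12, 3.83 and 5.75 in ICM (diapaused ICM against epiblast -1.84 ± 0.34, adjusted p = 0.00426). Nuf2 was at 1.77, 1.46 and 1.99 adjusted TPM in diapaused ICM, 12.3 and 9.68 in epiblast and 4.27, 0.622 and 2.46 in ICM (-2.13 ± 0.43, adjusted p = 0.00598). Both overlapped between the ICM groups, and both were higher in epiblast than in ICM (Ndc80 1.17 ± 0.34, adjusted p = 0.0322; Nuf2 1.95 ± 0.43, adjusted p = 0.0102). Without epiblast 1 those 4 calls were lost (against diapaused ICM 0.0572 for Ndc80 and 0.0653 for Nuf2; against ICM 0.229 and 0.0957). Those against ICM were also lost without epiblast 2 (0.0634 and 0.054), and for Ndc80 without ICM 1 or 2 (0.0818 and 0.0757).

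Cenpe, the kinesin that carries chromosomes to the spindle equator, was at 5.80, 9.92 and 12.0 adjusted TPM in diapaused ICM, 49.3 and 35.6 in epiblast and 17.1, 15.7 and 17.6 in ICM. Cenpf, a large corona protein made in G2, was at 5.07, 5.14 and 7.97 adjusted TPM in diapaused ICM, 27.0 and 25.3 in epiblast and 10.8, 7.36 and 13.4 in ICM. Both were lower in diapaused ICM than in epiblast (-2.12 ± 0.31, adjusted p = 0.00121; -1.97 ± 0.30, adjusted p = 0.00146) and higher in epiblast than in ICM (1.27 ± 0.31, adjusted p = 0.015; 1.27 ± 0.30, adjusted p = 0.0129). Against ICM, diapaused ICM stood at -0.85 ± 0.27 for Cenpe (adjusted p = 0.0773, every pool lower) and -0.70 ± 0.26 for Cenpf (adjusted p = 0.125). The epiblast calls over ICM were lost without epiblast 1 (Cenpe 0.126, Cenpf 0.0925) and for Cenpf without epiblast 2 (0.0664). Cenpn, which reads centromeric nucleosomes, and Knstrn, a kinetochore protein that tracks growing microtubule ends, passed in no comparison. Knstrn averaged 17.8 adjusted TPM in diapaused ICM, 11.0 in epiblast and 17.0 in ICM (diapaused ICM against ICM -0.02, 95% interval -0.77 to 0.74).

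Among the spindle motors and microtubule factors, 3 of 9 were lower in diapaused ICM than in ICM (median -0.91), and every diapaused pool lay below every ICM pool in 7. Kif4, the chromokinesin that works with condensin and with PRC1, was at 1.29, 1.13 and 2.76 adjusted TPM in diapaused ICM, 6.73 and 6.92 in epiblast and 7.25, 9.68 and 6.82 in ICM. The diapaused pools were apart from the rest, by -1.74 ± 0.26 against ICM (adjusted p = 0.00307) and -1.57 ± 0.29 against epiblast (adjusted p = 0.00403). Kif4 overlaps the exons of Pdzd11 on the opposite strand, and whether reads were counted by strand is not stated. Pdzd11 averaged 2.2 adjusted TPM in diapaused ICM, 10.3 in epiblast and 5.47 in ICM, so it too was lowest in diapaused ICM. Kif11 (Eg5), which slides spindle poles apart, was at 10.4, 7.33 and 8.33 adjusted TPM in diapaused ICM, 24.5 and 20.9 in epiblast and 16.8, 17.0 and 19.2 in ICM (-0.96 ± 0.21 against ICM, adjusted p = 0.0172; -1.30 ± 0.23 against epiblast, adjusted p = 0.00334). Aurka, the kinase of the spindle poles, was at 7.35, 5.91 and 13.4 adjusted TPM in diapaused ICM, 16.6 and 13.4 in epiblast and 42.8, 22.0 and 23.5 in ICM. It was lower in diapaused ICM than in ICM (-1.63 ± 0.34, adjusted p = 0.0154), and the difference from epiblast did not pass (-0.76 ± 0.38, adjusted p = 0.152). The Kif11 call against ICM was lost without diapaused ICM 2 or ICM 1 or 3 (0.0562, 0.0521 and 0.0578), and that of Aurka without diapaused ICM 2 or ICM 1 (0.0505 and 0.0521).

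Aurora kinases A and B are close relatives that act at different places in the spindle. The ratio of Aurka to Aurkb was 1.12, 0.950 and 1.03 in diapaused ICM, 0.787 and 0.525 in epiblast and 3.79, 1.48 and 1.80 in ICM, so every ICM pool lay above every other pool. Tpx2, the activator of Aurora A on the spindle, was at 26.9, 12.8 and 25.5 adjusted TPM in diapaused ICM, 23.5 and 19.2 in epiblast and 41.1, 52.5 and 39.1 in ICM. Like Aurka it had its highest mean in ICM, with -1.05 ± 0.30 for diapaused ICM against ICM (adjusted p = 0.0504) and -1.01 ± 0.33 for epiblast against ICM (adjusted p = 0.0489). The call of epiblast against ICM was lost without diapaused ICM 3, epiblast 1 or 2, or ICM 1, 2 or 3 (0.0566, 0.135, 0.22, 0.0888, 0.107 and 0.0763).

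Nusap1, which bundles spindle microtubules, was highest in the ICM groups. It was at 46.5, 84.9 and 43.4 adjusted TPM in diapaused ICM, 16.3 and 16.8 in epiblast and 56.2, 75.8 and 37.6 in ICM. The ICM groups overlapped (0.03 ± 0.33, 95% interval -0.72 to 0.78), and diapaused ICM was above epiblast (1.69 ± 0.37, adjusted p = 0.00883), as ICM was (-1.66 ± 0.37 for epiblast against ICM, adjusted p = 0.011). Both calls were lost without epiblast 1 (0.0669 and 0.0816) or epiblast 2 (0.0562 and 0.0654). Kif22, a chromokinesin of chromosome arms, was lower in diapaused ICM than in epiblast (2.23 against 6.41 adjusted TPM; -1.27 ± 0.40, adjusted p = 0.0363, lost without diapaused ICM 1, epiblast 1 or 2, or ICM 3 at 0.0791, 0.189, 0.119 and 0.0513). Kif2c, which takes microtubules apart at centromeres, was at 2.19, 2.51 and 3.43 adjusted TPM in diapaused ICM and 5.33, 8.57 and 4.42 in ICM, with an adjusted p of 0.05 (0.0493 without ICM 3). Kif18a, which dampens chromosome oscillation, and Hmmr, a spindle assembly factor, passed in no comparison, with -0.82 ± 0.26 and -0.84 ± 0.29 for diapaused ICM against ICM and every diapaused pool below every ICM pool in both.

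Of the 6 cytokinesis genes, 2 were lower in diapaused ICM than in ICM (Kif20a and Anln; median of the 6, -0.68) and 2 lower than in epiblast (Kif20a and Kif20b). Kif20a, the kinesin that brings the passenger complex to the midzone, was at 1.09, 4.32 and 2.52 adjusted TPM in diapaused ICM, 13.4 and 11.0 in epiblast and 7.41, 9.03 and 6.95 in ICM. It was lower in diapaused ICM than in ICM (-1.37 ± 0.32, adjusted p = 0.0248) and than in epiblast (-1.95 ± 0.36, adjusted p = 0.00409, lost without epiblast 1 at 0.0506). Anln (anillin), the scaffold of the cleavage furrow, was at 3.01, 3.04 and 6.67 adjusted TPM in diapaused ICM, 5.68 and 4.83 in epiblast and 11.9, 9.005 and 10.6 in ICM (-1.20 ± 0.28 against ICM, adjusted p = 0.0238). Every diapaused ICM pool was below every ICM pool in both. Every epiblast pool was below the ICM pools for Anln too (-0.87 for epiblast against ICM, adjusted p = 0.0634). The call against ICM was lost for Kif20a without diapaused ICM 3, epiblast 1 or 2, or ICM 1, 2 or 3 (0.0607, 0.0525, 0.0524, 0.0684, 0.0664 and 0.0578) and for Anln without diapaused ICM 1 or 2, epiblast 1, or ICM 1 or 3 (0.0729, 0.0749, 0.0501, 0.0839 and 0.0678). Kif20a overlaps the exons of Cdc23 on the opposite strand, whose means took the reverse order at 105 adjusted TPM in diapaused ICM, 24.1 in epiblast and 45.9 in ICM.

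Prc1, which bundles the antiparallel microtubules of the midzone, was at 58.9, 35.6 and 55.04 adjusted TPM in diapaused ICM, 36.8 and 43.6 in epiblast and 38.5, 47.7 and 33.2 in ICM. The groups overlapped, and the interval of diapaused ICM against ICM (0.30, 95% interval -0.29 to 0.88) leaves out a 2-fold change either way on this scale. Ect2, the exchange factor that activates RHOA at the furrow, was at 5.81, 11.9 and 9.04 adjusted TPM in diapaused ICM, 6.49 and 5.42 in epiblast and 6.36, 8.73 and 9.56 in ICM (0.08 ± 0.27 for diapaused ICM against ICM). The sum of the 6 cytokinesis genes was 86.6, 72.6 and 98.7 adjusted TPM in diapaused ICM, 98.8 and 95.7 in epiblast and 101, 107 and 93.1 in ICM. Of the 10 roles, only this sum, that of the transcription factors and that of the spindle factors had at least 1 diapaused ICM pool at or above an epiblast pool. Kif23, the centralspindlin motor, was at 6.71, 4.56 and 5.98 adjusted TPM in diapaused ICM, 7.55 and 4.66 in epiblast and 8.16, 9.19 and 10.1 in ICM. Every diapaused ICM and epiblast pool was below every ICM pool, but no comparison passed (-0.60 for diapaused ICM against ICM, adjusted p = 0.135, and -0.54 for epiblast against ICM, adjusted p = 0.149). Kif20b, another kinesin of the midzone, was lower in diapaused ICM than in epiblast (-0.91 ± 0.27, adjusted p = 0.0313), a call lost without diapaused ICM 1 or 2 or epiblast 1 or 2 (0.0807, 0.0706, 0.146 and 0.102). Against ICM it stood at -0.76 ± 0.24 (adjusted p = 0.0776, or 0.0362 without diapaused ICM 3).

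**Figure D2:**
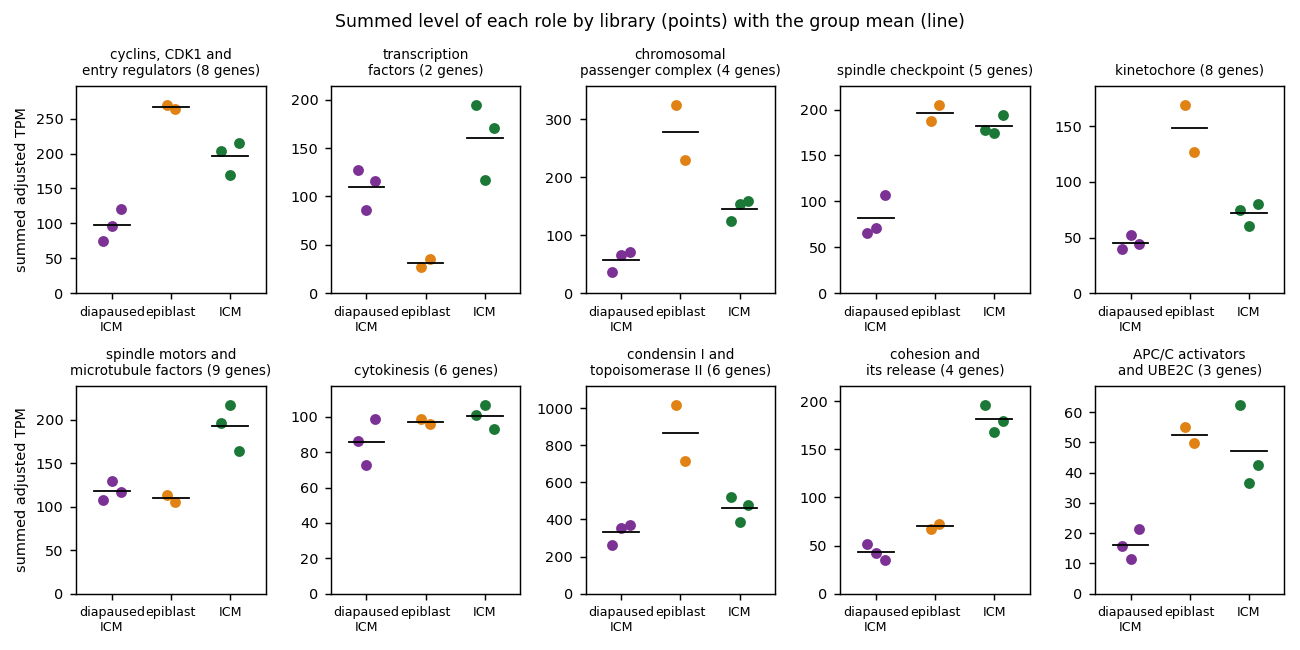
Each panel is a role, each point the adjusted TPM summed over that role's genes in a library, and each line a group mean, on axes that start at 0. The diapaused ICM points lie below all ICM points in 8 of the 10 panels, the exceptions being the transcription factors and cytokinesis, and the epiblast is high for the passenger complex, kinetochore and condensin.

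Condensin I, which with topoisomerase II shapes the mitotic chromosome, held the most abundant of these RNAs, and its subunits did not move together. Ncapg, a regulatory subunit, was at 10.6, 12.5 and 10.8 adjusted TPM in diapaused ICM, 105 and 82.3 in epiblast and 24.0, 21.9 and 30.6 in ICM. The 3 groups stood far apart, with -1.10 ± 0.22 for diapaused ICM against ICM (adjusted p = 0.0118), -2.94 ± 0.24 for diapaused ICM against epiblast (adjusted p = 8.62e-05) and 1.84 ± 0.24 for epiblast over ICM (adjusted p = 0.000907). Smc2, a core ATPase, was at 5.74, 8.96 and 9.68 adjusted TPM in diapaused ICM, 61.1 and 46.1 in epiblast and 14.2, 10.9 and 16.8 in ICM. Diapaused ICM was lower than epiblast (-2.59 ± 0.29, adjusted p = 0.000366), and epiblast was higher than ICM (1.87 ± 0.29, adjusted p = 0.00219). Every diapaused pool also lay below every ICM pool, without passing (-0.72 ± 0.26, adjusted p = 0.112). Smc4, its partner, was at 180.5, 213 and 236 adjusted TPM in diapaused ICM, 679.8 and 380.4 in epiblast and 353, 240.4 and 314 in ICM (-1.28 ± 0.31 against epiblast, adjusted p = 0.0123, lost without epiblast 1 at 0.106). The ratio of Smc4 to Smc2 RNA, whose proteins pair, was 31.4, 23.7 and 24.3 in diapaused ICM, 11.1 and 8.26 in epiblast and 24.8, 22.1 and 18.6 in ICM.

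Ncapd2, another regulatory subunit of condensin I, had its group means in the opposite order to Ncapg. It was at 7.82, 11.9 and 5.62 adjusted TPM in diapaused ICM, 2.51 and 2.46 in epiblast and 3.97, 9.15 and 2.83 in ICM. Ncapd2 did not pass between diapaused ICM and ICM (0.66, adjusted p = 0.307), whose pools overlapped, or between epiblast and ICM (-0.73, adjusted p = 0.221). It was higher in diapaused ICM than in epiblast (1.38 ± 0.42, adjusted p = 0.033), a call lost without diapaused ICM 1 or 2 or epiblast 1 or 2 (0.0609, 0.0832, 0.145 and 0.146). The ratio of Ncapg to Ncapd2 was 1.35, 1.05 and 1.93 in diapaused ICM, 41.6 and 33.5 in epiblast and 6.03, 2.40 and 10.8 in ICM, so that the 3 groups did not overlap. Ncaph, the kleisin that joins the ring, averaged 7.32 adjusted TPM in diapaused ICM, 11.6 in epiblast and 5.76 in ICM and passed in no comparison. Top2a, which untangles sister DNA, was at 51.8, 101 and 103 adjusted TPM in diapaused ICM, 152 and 199.6 in epiblast and 117, 98.4 and 109 in ICM. Diapaused ICM 2 and 3 lay within the ICM range (-0.41 ± 0.29, adjusted p = 0.427). Diapaused ICM was lower than epiblast (-1.09 ± 0.33, adjusted p = 0.0315, lost without diapaused ICM 1 or epiblast 1 or 2 at 0.0605, 0.0821 and 0.179).

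The lowest fold changes against ICM among the 54 genes were those of Cdca5 and Pttg1, which act on sister cohesion. Cdca5 (sororin), which keeps cohesin on chromatin until mitosis, was at 6.62, 7.17 and 8.24 adjusted TPM in diapaused ICM, 43.3 and 46.9 in epiblast and 36.0, 47.9 and 38.8 in ICM. Its mean in diapaused ICM was 0.179 of that in ICM, with -2.32 ± 0.20 against ICM (adjusted p = 0.000224) and -2.47 ± 0.23 against epiblast (adjusted p = 0.000154). Between epiblast and ICM the difference did not pass (0.15 ± 0.23, 95% interval -0.37 to 0.66). Pttg1 (securin), the inhibitor of separase, was at 36.9, 29.1 and 19.5 adjusted TPM in diapaused ICM, 9.49 and 14.4 in epiblast and 148, 112 and 132 in ICM. It was lower in diapaused ICM (-2.19 ± 0.28, adjusted p = 0.0015) and lower in epiblast (-3.36 ± 0.32, adjusted p = 0.000148) than in ICM. Diapaused ICM was above epiblast (1.17 ± 0.32, adjusted p = 0.0211, lost without diapaused ICM 1 or 2 or epiblast 1 at 0.0548, 0.0502 and 0.154). The 3 groups did not overlap, with every ICM pool highest and every epiblast pool lowest.

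Espl1 (separase), the protease that securin holds, was low throughout, at 1.58, 1.08 and 2.35 adjusted TPM in diapaused ICM, 2.45 and 1.55 in epiblast and 2.37, 3.96 and 2.96 in ICM, and passed in no comparison. The ratio of Pttg1 to Espl1 was 23.3, 27.0 and 8.29 in diapaused ICM, 3.88 and 9.30 in epiblast and 62.6, 28.3 and 44.5 in ICM. Every ICM pool lay above every other pool in this ratio, if by little between ICM 2 and diapaused ICM 2. Sgol1 (shugoshin), which guards centromeric cohesin, was at 6.63, 4.59 and 5.04 adjusted TPM in diapaused ICM, 12.1 and 9.70 in epiblast and 9.46, 4.45 and 6.15 in ICM. It overlapped between the ICM groups and was lower in diapaused ICM than in epiblast (-0.89 ± 0.30, adjusted p = 0.0485), a call lost without any of diapaused ICM 1, 2 or 3, epiblast 1 or 2, or ICM 3 (0.0506, 0.11, 0.105, 0.236, 0.118 and 0.0655).

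The APC/C and its E2 end the sequence. Cdc20, the activator that the checkpoint restrains, was at 1.99, 6.40 and 8.06 adjusted TPM in diapaused ICM, 21.1 and 22.6 in epiblast and 26.3, 23.1 and 14.5 in ICM. Diapaused pools were below all others (-1.89 ± 0.41 against ICM, adjusted p = 0.0171, lost without ICM 1 at 0.0648; -1.96 ± 0.46 against epiblast, adjusted p = 0.0112, lost without epiblast 1 or 2 at 0.0736 and 0.0771). Fzr1 (CDH1), the activator that acts after anaphase and in G1, was at 1.31, 1.48 and 1.76 adjusted TPM in diapaused ICM, 3.06 and 3.42 in epiblast and 1.90, 1.11 and 2.97 in ICM. It did not pass against ICM (-0.21 ± 0.26) or epiblast (-0.75 ± 0.29, adjusted p = 0.0714, or 0.042 without ICM 2 and 0.0487 without ICM 3). The ratio of Cdc20 to Fzr1 was 1.52, 4.31 and 4.59 in diapaused ICM, 6.88 and 6.60 in epiblast and 13.8, 20.8 and 4.89 in ICM, with every diapaused pool below all others. Ube2c, the ubiquitin-conjugating enzyme that starts APC/C chains, was at 12.4, 3.75 and 11.4 adjusted TPM in diapaused ICM, 31.1 and 23.7 in epiblast and 34.2, 12.3 and 25.1 in ICM. ICM 2 reached into the diapaused range (-1.32 ± 0.47, adjusted p = 0.103, or 0.0459 without ICM 2). Against epiblast Ube2c was lower (-1.61 ± 0.52, adjusted p = 0.0411), a call lost without diapaused ICM 2 or 3, epiblast 1 or 2, or ICM 3 (0.086, 0.0523, 0.209, 0.125 and 0.0569).

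**Figure D3:**
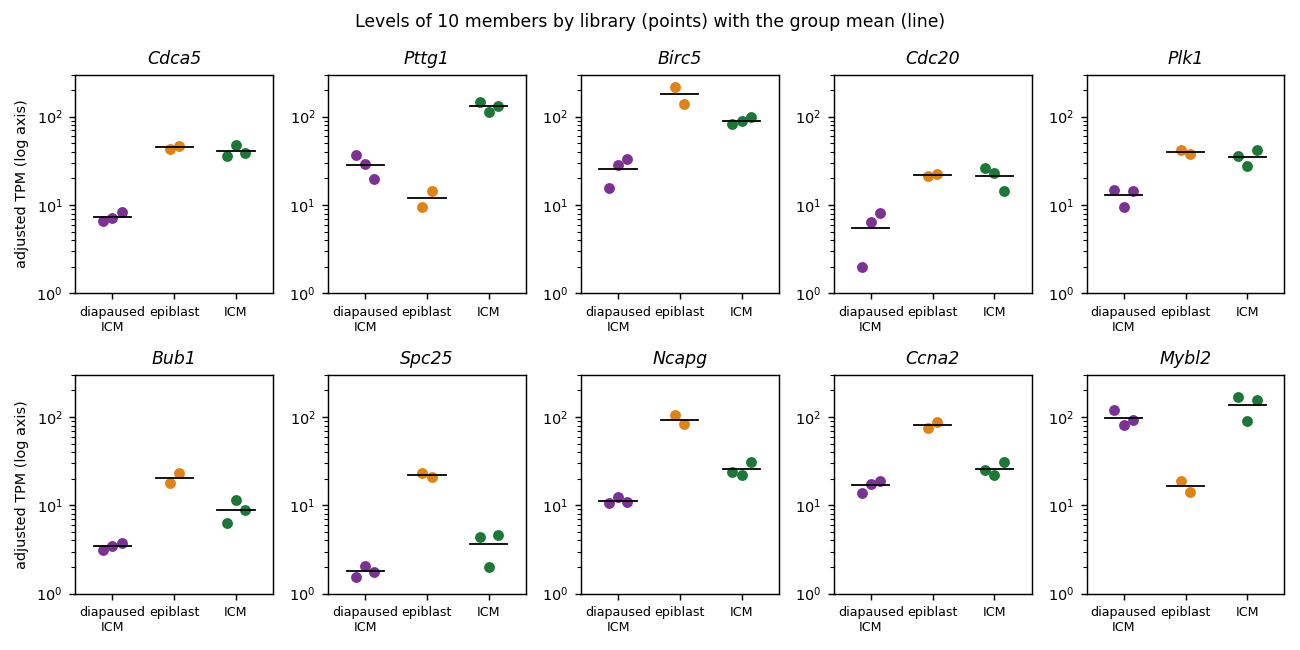
Points are the adjusted TPM of a gene in each library on a log axis, and lines are group means, for 10 genes chosen with their values known to show the patterns described. Cdca5, Birc5, Cdc20 and Plk1 are lowest in diapaused ICM. Bub1, Spc25, Ncapg and Ccna2 are highest in epiblast, and of these Bub1 and Ncapg passed as lower in diapaused ICM than in ICM while Spc25 and Ccna2 did not. Pttg1 and Mybl2 are lowest in epiblast.

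**Figure D4:**
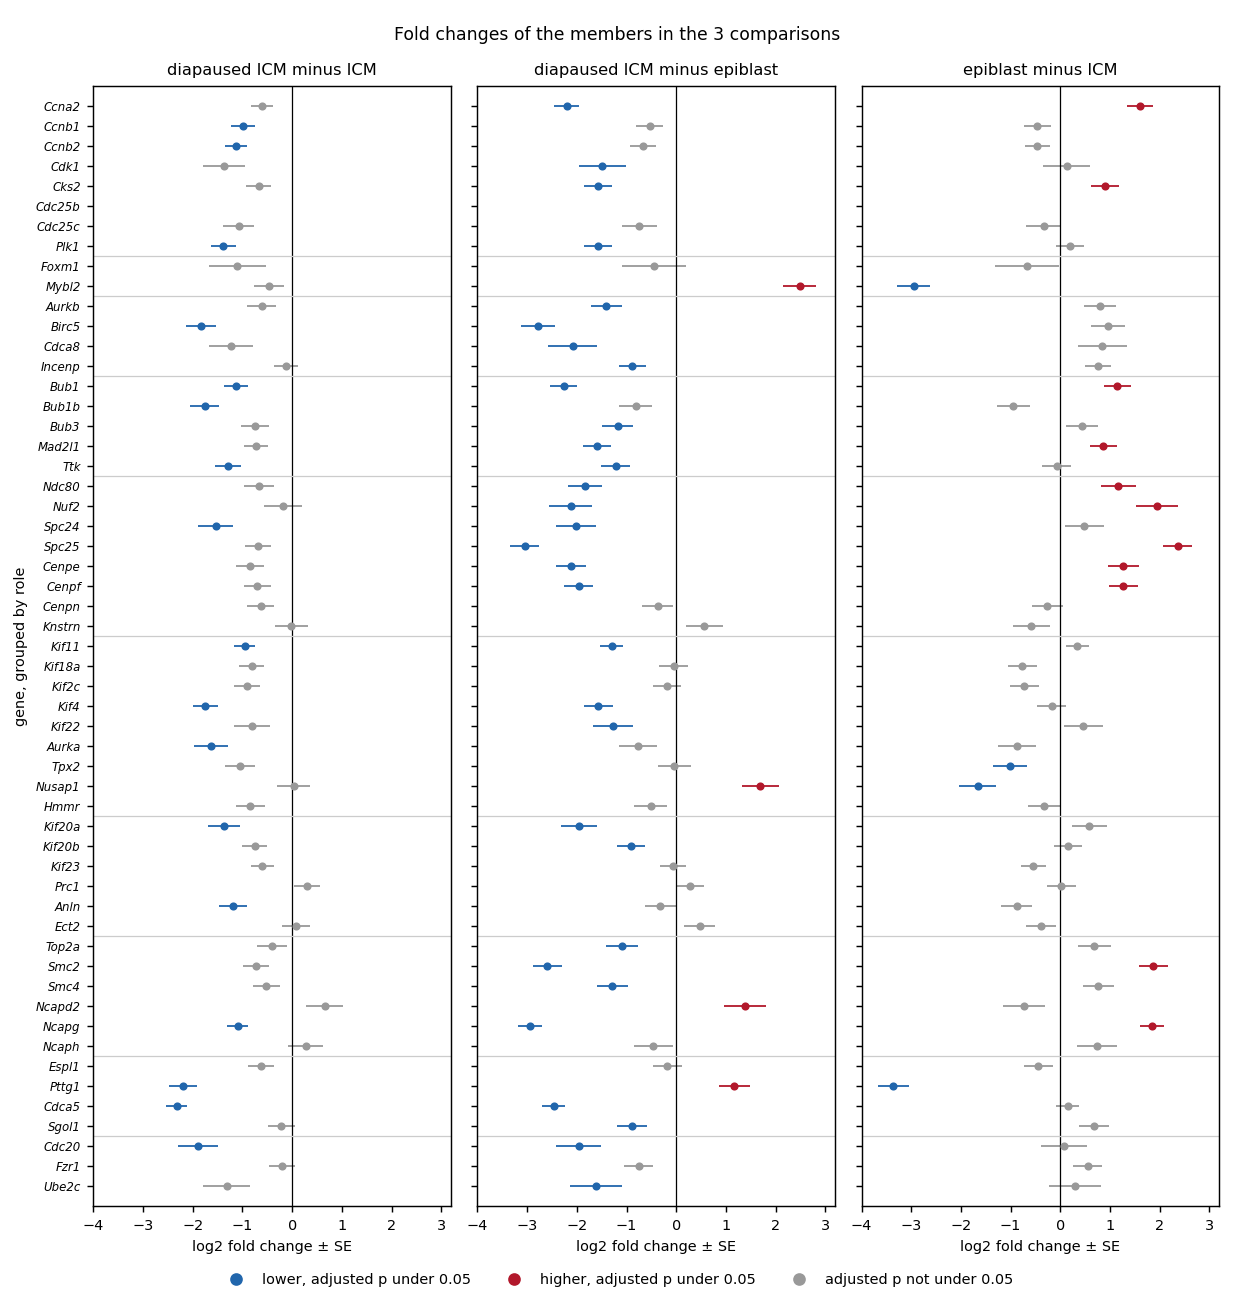
Points are log2 fold changes on the log2(adjusted TPM + 1) scale and bars are ± SE for the 54 tested genes, in the order of the roles, for the 3 comparisons. Blue and red mark adjusted p under 0.05 for lower and higher, and the 17 blue points of the first panel have no red counterpart.

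Of the 17 genes lower in diapaused ICM than in ICM, 9 kept their call whichever single library was left out: Ccnb2, Plk1, Birc5, Bub1b, Ttk, Kif4, Ncapg, Pttg1 and Cdca5. When the test asked for more than a 1.5-fold change, 5 of the 17 were kept (Birc5, Bub1b, Kif4, Pttg1 and Cdca5), and with no filter on low values 9 were kept. Against epiblast 16 of 35 calls held in every leave-one-out fit, and between epiblast and ICM 6 of 15 did (Ccna2, Mybl2, Spc25, Smc2, Ncapg and Pttg1). Against ICM all 17 calls were kept under each of the 3 other scalings, and 15 when only the groups compared were fitted (Anln at 0.052 and Kif20a at 0.0542). Against epiblast, median-ratio scaling ended 7 of the 35 calls, at adjusted p of 0.0592 for Cdk1, 0.0635 for Ube2c, 0.0637 for Top2a, 0.0639 for Kif22, 0.0712 for Incenp, 0.0734 for Kif20b and 0.102 for Sgol1. Quantile normalization ended Top2a (0.0863), and rescaling without the most abundant genes ended Sgol1 (0.0514), Kif20b (0.0566) and Kif22 (0.0571). Fitting only the groups compared ended Ube2c (0.0522), Cdk1 (0.0527), Kif22 (0.0532), Kif20b (0.0566) and Top2a (0.0651). For epiblast against ICM, Mad2l1, Cks2 and Ndc80 lost their calls with median-ratio scaling (0.0854, 0.0797 and 0.0537), Mad2l1, Cks2 and Bub1 when rescaled (0.125, 0.112 and 0.0588), and Tpx2 with quantile normalization (0.075) or the replicate block (0.0957). With no filter on low values 23 of the 35 calls against epiblast and 10 of the 15 between epiblast and ICM were kept. Leaving out an epiblast pool leaves that group with 1 library, which was then assumed to vary like the others.

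Genes of the same machinery outside the 55 were also examined, against shares over all genes of 5.81% lower and 7.52% higher for diapaused ICM against ICM. Of 36 other kinetochore genes 10 were lower and 1 higher in diapaused ICM than in ICM (27.8% and 2.78%; median -0.46, against 0.0044 for all genes). Trip13, the ATPase that resets MAD2, averaged 17.3 adjusted TPM in diapaused ICM and 66.6 in ICM (adjusted p = 0.0052), and Pmf1, a subunit of the MIS12 complex, 3.28 and 11.2 (adjusted p = 0.00694). Of 25 tested regulators of entry 4 were lower and 1 higher (16% and 4%; median -0.41). The centrosomal kinase Nek2 averaged 5.19 adjusted TPM in diapaused ICM and 21.7 in ICM (adjusted p = 0.00274). The higher gene was Ensa, a phosphatase inhibitor of the Greatwall pathway, at 28.5 in diapaused ICM and 10.7 in ICM (adjusted p = 0.00885). Of 18 APC/C subunits and inhibitors 3 were lower, Anapc15, Anapc5 and Anapc10, and 1 higher (16.7% and 5.56%; median -0.34). Of 15 genes of cohesin, condensin II and their loaders 1 was lower, the cohesin kleisin Rad21 (50.9 adjusted TPM in diapaused ICM and 139 in ICM, adjusted p = 0.00896; 6.67% of the list, median -0.09). Of 33 other spindle and cytokinesis genes 1 was lower, the augmin subunit Haus1, and 1 higher, the citron kinase Cit (3.03% each; median -0.41).

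Against epiblast, 18.6% of all genes were lower in diapaused ICM and 16% higher. Of the 36 other kinetochore genes 11 were lower and 2 higher (30.6% and 5.56%), of 33 spindle and cytokinesis genes 9 and 1 (27.3% and 3.03%), and of 25 entry regulators 6 and 1 (24% and 4%). The APC/C list had 3 lower and 4 higher (16.7% and 22.2%), and the cohesin and condensin II list 4 lower and 0 higher (26.7% and 0%). Mki67, the coat of mitotic chromosomes used as a proliferation marker, averaged 8.81 adjusted TPM in diapaused ICM, 51.5 in epiblast and 12.2 in ICM, and was lower in diapaused ICM than in epiblast (-2.40, adjusted p = 0.00204). Fbxo5 (EMI1), the APC/C inhibitor of S and G2 phase, averaged 1.12 adjusted TPM in diapaused ICM and 17.4 in epiblast (adjusted p = 0.00127). Ube2s, the E2 that lengthens the chains begun by Ube2c, went the other way, at 16.2 adjusted TPM in diapaused ICM and 2.10 in epiblast (adjusted p = 0.000244), with 24.99 in ICM, an order shared with Pttg1 and Mybl2 in that the epiblast was lowest.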

How the data were processed

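Transcript levels came from 8 RNA-seq libraries, 3 of diapaused ICM, 2 of epiblast and 3 of ICM, each a pool of about 50 embryos, grouped by the sample titles. The authors deposited one signal value for each gene and library under column names that read adjusted TPM, with no account of the adjustment. Column totals ran from 720674.5 (ICM 2) to 1179026 (diapaused ICM 1). The values were therefore used as a signal, although TPM had been assumed when the tests were chosen, and the test on log2(value + 1) was kept. The submitters' processing notes name Bowtie 0.12.5, DESeq with no version and build mm9, but no roles for them. The counter, annotation, filters and strand setting were not given in the sources used here. Depth is unknown, so no counting interval is given.

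Where a symbol had several rows the row of highest mean was used (204 repeats in the file). A linear model over all 8 libraries with 3 group means was fitted by limma 3.58.1 under R 4.3.3, with a trended prior variance, a pseudocount of 1 and 5 residual degrees of freedom. Of 38924 genes, 17698 reached 1 in at least 2 libraries. Tests were two-sided with Benjamini-Hochberg adjustment over those genes. The fit was also run on values simulated from group-free means and its own fitted spread, which cannot test the model's assumptions. The 55 genes, the pathway lists and the marker lists were chosen with earlier results of these data known, so their counts are descriptions beside those of all genes. All 55 genes could be named. From each other list at most 3 genes with the smallest adjusted p per comparison were named. The sample titles state no link between same-numbered pools of different groups beyond the number.

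Promoters are those of the first listed start per gene in RefSeq's GRCm38.p6, matched by symbol or gene ID, and no coordinate of it was joined to the expression values. Exon overlap (19 of the 55 genes) and transcripts at least 95% identical over at least 300 bases (4 genes: Ccnb1, Mad2l1, Mybl2 and Ndc80) were looked up in the GENCODE annotation of GRCm38 with blastn 2.17.0 and Python 3.11.15, and reads of such genes may have been shared. Alternatives were other pseudocounts, filters and scalings, a minimum fold of 1.5, other variance models, a replicate block and leaving out each library.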

Additional observations from a re-analysis of the deposited data

How the results depend on the processing

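Over 19 alternatives the values of the 54 genes kept their direction and their side of the threshold in 936 cases for diapaused ICM against ICM, 898 for diapaused ICM against epiblast and 924 for epiblast against ICM. Calls were lost in 51, 103 and 54 cases and gained in 22, 8 and 24, and signs turned in 14, 14 and 21, each time for a value that was not called. Lower calls against ICM, 17 as reported, were 9 with no filter (which gave 1 higher call in place of 0), 5 with a minimum fold of 1.5 and 10 to 20 with a library left out (10 without ICM 1). Against epiblast the 31 lower calls were 17 with the minimum fold and 15 to 32 with a library left out (15 without epiblast 1, 19 without epiblast 2), and the 4 higher calls were 2 with no filter, 1 with the minimum fold and 1 to 4 with a library left out. Between epiblast and ICM the 4 lower calls were 7 with median-ratio scaling, 6 rescaled without the 100 most abundant genes, 2 with the minimum fold and 2 to 5 with a library left out (2 without epiblast 1 or 2), and the 11 higher calls were 4 with the minimum fold and 4 to 12 with a library left out (4 without epiblast 1).

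Over all genes the 1029 lower calls against ICM were 603 with no filter, 244 with the minimum fold and 604 to 1108 with a library left out, and the 1331 higher ones were 675, 396 and 793 to 1105. Against epiblast the 3283 lower calls were 1009 with the minimum fold and 1328 to 3368 with a library left out, and the 2830 higher ones were 1234 and 1370 to 2947. Between epiblast and ICM the 2361 lower calls were 974 and 1001 to 2388, and the 2963 higher ones were 871 and 1007 to 2849, or 1969 when rescaled. Higher against lower calls were 1100 and 1323 for diapaused ICM against ICM when rescaled, 3277 and 2253 against epiblast with median-ratio scaling, and for epiblast against ICM 1969 and 2725 when rescaled and 2148 and 2685 with median-ratio scaling. Rescaling moved the median of all genes by -0.12 against ICM and -0.16 for epiblast against ICM, and median-ratio scaling by -0.13 there and 0.16 against epiblast. The median of the 54 genes against ICM was -0.85, -0.94 and -0.79 with quantile normalization, rescaling and median-ratio scaling.

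For diapaused ICM against ICM the sign turned for Knstrn with median-ratio scaling (0.020) and for Nusap1 and Ect2 when rescaled (-0.11 and -0.057). With a library left out the ranges that crossed 0 were -0.25 to 0.075 for Incenp, -0.65 to 0.20 for Nuf2, -0.34 to 0.31 for Knstrn, -0.27 to 0.27 for Nusap1, -0.14 to 0.32 for Ect2, -0.44 to 0.028 for Sgol1 and -0.43 to 0.023 for Fzr1. For epiblast against ICM it turned when rescaled for Cdk1 (-0.074), Plk1 (-0.0040), Kif20b (-0.044), Prc1 (-0.18), Cdca5 (-0.057) and Cdc20 (-0.13), with median-ratio scaling for Cdk1 (-0.037), Kif20b (-0.0072), Prc1 (-0.14), Cdca5 (-0.019) and Cdc20 (-0.088), and with quantile normalization for Ttk (0.050). Ranges with a library left out were -0.19 to 0.42 for Cdk1, -0.26 to 0.19 for Ttk, -0.30 to 1.26 for Spc24, -0.096 to 0.16 for Prc1, -0.17 to 0.24 for Cdc20 and -0.11 to 0.60 for Ube2c. For diapaused ICM against epiblast it turned with median-ratio scaling for Kif18a (0.12), Tpx2 (0.16) and Kif23 (0.12) and when rescaled for Tpx2 (0.020). Ranges with a library left out were -1.09 to 0.20 for Foxm1, -0.38 to 0.28 for Kif18a, -0.22 to 0.29 for Tpx2, -0.35 to 0.24 for Kif23, -1.17 to 0.25 for Ncaph and -0.40 to 0.039 for Espl1. Where an alternative does not itself test fewer genes or samples, the cause was not tested.

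With the replicate block 19 genes were lower and 0 higher against ICM, 33 and 4 against epiblast, and 4 and 11 for epiblast against ICM. Same-numbered pools of diapaused ICM and ICM correlated at 0.018, 0.10 and 0.13 in their deviations from the group means. Differently numbered pools of these groups ran from -0.148 (ICM 3 with diapaused ICM 2) to 0.033 (ICM 1 with diapaused ICM 2). Whether same-numbered pools are linked was not settled. Depth is unknown and limits what can be said of genes near 1 adjusted TPM.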
